A study of Homo sapiens with 6 samples.

Results

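The genes of tissue factor signalling, thrombospondin and plasminogen activation were followed in MDA-MB-231 cells with and without knockdown of YAP1. The group held 9 genes out of 60612 gene identifiers with values, namely F3, TFPI, TFPI2, THBS1, THBS2, PLAU, PLAUR, PLAT and SERPINE2. They were taken by their symbols. MDA-MB-231 is an established human triple-negative breast cancer (TNBC) line, labelled as epithelial. The Sh-NC group carried a control short hairpin RNA and is labelled as wild type, and the Sh-YAP1 group carried a hairpin RNA against YAP1 and is labelled as YAP1 knockdown. Both groups were cells of the same line, without further treatment, taken on day 3, with 3 libraries each. A figure legend of the study calls them stably expressing, while its methods describe transfection of hairpin RNA. Which of these holds for the libraries was not settled. The labels do not say how many hairpin sequences or clones stand behind Sh-YAP1, and no label ties the libraries to separate cultures. The methods state in general terms that experiments were repeated independently, without naming these libraries, so the p-values measure only the spread between these libraries. Where 3 values are given for a group they stand for replicates 1, 2 and 3 in that order.

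Tissue factor, the product of F3, is the membrane receptor for factor VII that starts the clotting cascade, and it is abundant on many invasive carcinoma cells. TFPI and TFPI2 are Kunitz-type inhibitors, of which TFPI blocks the complex of tissue factor and factor VIIa. PLAU (urokinase, uPA) and PLAT (tissue-type activator, tPA) cleave plasminogen to plasmin, a protease that dissolves fibrin and degrades matrix, and PLAUR holds urokinase at the cell surface. SERPINE2 (protease nexin-1) is a serpin that inhibits thrombin, urokinase and plasmin, and THBS1 and THBS2 are matricellular glycoproteins known for blocking the growth of blood vessels. YAP1 is a transcriptional coactivator that acts on DNA through TEAD factors.

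The knockdown itself was seen in every library, with YAP1 at 22.9 to 28.1 FPKM in Sh-NC, against 2.58 to 3.35 FPKM in Sh-YAP1. FPKM is the number of fragments mapped to a transcript, scaled to its length and to all mapped fragments of the library, so levels of different genes can be compared on this scale. The values carry no read counts, so the depth of the libraries is unknown and no interval for counting error is given. Markers of the labelled cell (VIM, CD44, KRT18, KRT8) summed to 2058 to 2688 FPKM in Sh-NC, against 2149 to 2496 FPKM in Sh-YAP1, most of it VIM. All 4 had lower means in Sh-YAP1, and KRT18 did not overlap, at 122.7 to 125.9 against 99.9 to 109.0 FPKM (Benjamini-Hochberg adjusted p = 0.102, limma). Of 5 luminal, receptor and epithelial markers, ERBB2 was at 14.3 to 18.1 FPKM and EPCAM at 2.43 to 3.27 FPKM, while ESR1, PGR and CDH1 stayed under 1 FPKM. All 5 blood and platelet markers were under 1 FPKM in every library, with sums of 0.05 to 0.1 FPKM in Sh-NC, against 0.02 to 0.08 FPKM in Sh-YAP1. Endothelial markers summed to 2.07 to 3.21 FPKM in Sh-NC, against 2.43 to 3.01 FPKM in Sh-YAP1, most of it PECAM1 (0.76 to 1.70 FPKM) and TIE1 (0.76 to 1.37 FPKM), with CDH5 and VWF at or under 0.04 FPKM. The 6 fibroblast markers summed to 7.97 to 10.5 FPKM in Sh-NC, against 3.94 to 9.96 FPKM in Sh-YAP1, most of it COL1A1, and COL1A2 was lower in all 3 Sh-YAP1 libraries (0 to 0.72 against 0.97 to 1.96 FPKM). The part of these markers in the results below was not tested. GAPDH, a reference gene, had means of 3973 and 3623 FPKM (Benjamini-Hochberg adjusted p = 0.296, limma), with every Sh-YAP1 library below every Sh-NC library.

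Promoter sequences of 8 of the 9 genes were read from RefSeq on GRCh38.p14, as 10 windows of 300 bases that run from 250 before to 50 after a start site. The table held none for PLAT. Each was searched on both strands for GGAATG, the core motif of TEAD factors, and for TGANTCA, the motif of AP-1, which reads the same on both strands. Of 35116 such promoters in the table, 14% held GGAATG and 7.71% held TGANTCA. The TEAD letters GGAATG were present in the promoters of THBS1 and THBS2, and TGANTCA in those of F3, TFPI2 and PLAUR. The windows of TFPI, PLAU and SERPINE2 held neither set of letters, which says nothing about binding elsewhere. A stretch of each window with a match is shown, longer for F3 and THBS1, whose libraries separated by group in opposite directions. TFPI and SERPINE2 separated too but held no match, and PLAT separated but had no window. F3 had a Benjamini-Hochberg adjusted p of 0.0587 (limma). The stretches are written 5′ to 3′ along the gene, with the motif in capitals, and the window of F3 holds TGANTCA at 2 places.
THBS1 (chr15:39580829-39581078, plus strand): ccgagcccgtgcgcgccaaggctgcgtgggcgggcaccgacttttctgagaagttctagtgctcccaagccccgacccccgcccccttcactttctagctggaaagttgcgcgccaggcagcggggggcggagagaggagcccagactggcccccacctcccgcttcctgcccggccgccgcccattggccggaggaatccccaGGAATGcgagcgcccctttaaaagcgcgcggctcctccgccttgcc
F3 (chr1:94541860-94542009, minus strand): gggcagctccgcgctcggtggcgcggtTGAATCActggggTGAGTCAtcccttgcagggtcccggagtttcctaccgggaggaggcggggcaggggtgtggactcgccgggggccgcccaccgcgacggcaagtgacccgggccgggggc
THBS2 (chr6:169253926-169253955, minus strand): tgatgtCATTCCttcgaaGGAATGaattaa
TFPI2 (chr7:93890829-93890846, minus strand): cgtgcaTGAATCAgccac
PLAUR (chr19:43670344-43670361, minus strand): actccaTGAGTCAgggcc
Relative to the start site, the THBS1 match began at -46, the F3 matches at -223 and -210, the TFPI2 match at -87 and the PLAUR match at -186. The THBS2 stretch holds GGAATG once on each strand, as an inverted pair.

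Of the 9 genes, 8 reached a mean of 0.5 FPKM across the 6 libraries and were tested with limma in 1 fit with all 14770 genes that did so. Differences are log2 fold changes of FPKM + 1. THBS1 and SERPINE2 were up-regulated in Sh-YAP1 with an adjusted p under 0.05, which is 2 of 8 genes. Of all genes tested, 3.38% were called, 1.75% higher and 1.62% lower in Sh-YAP1. No gene of the 8 was called lower, and F3 and PLAT missed the threshold narrowly. The groups did not overlap for 5 of the 8 genes, of which TFPI, THBS1 and SERPINE2 were higher and F3 and PLAT lower in Sh-YAP1. Over the whole fit, 29.4% of genes had groups without overlap, 14.6% higher and 14.7% lower in Sh-YAP1. The median log2 fold change was 0.01 over the 8 genes and 0.00 over all genes, with 4 of the 8 genes higher and 4 lower in Sh-YAP1. In RNA from whole cultures, fewer cells that express a gene and less RNA per cell cannot be told apart.

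**Figure D1:**
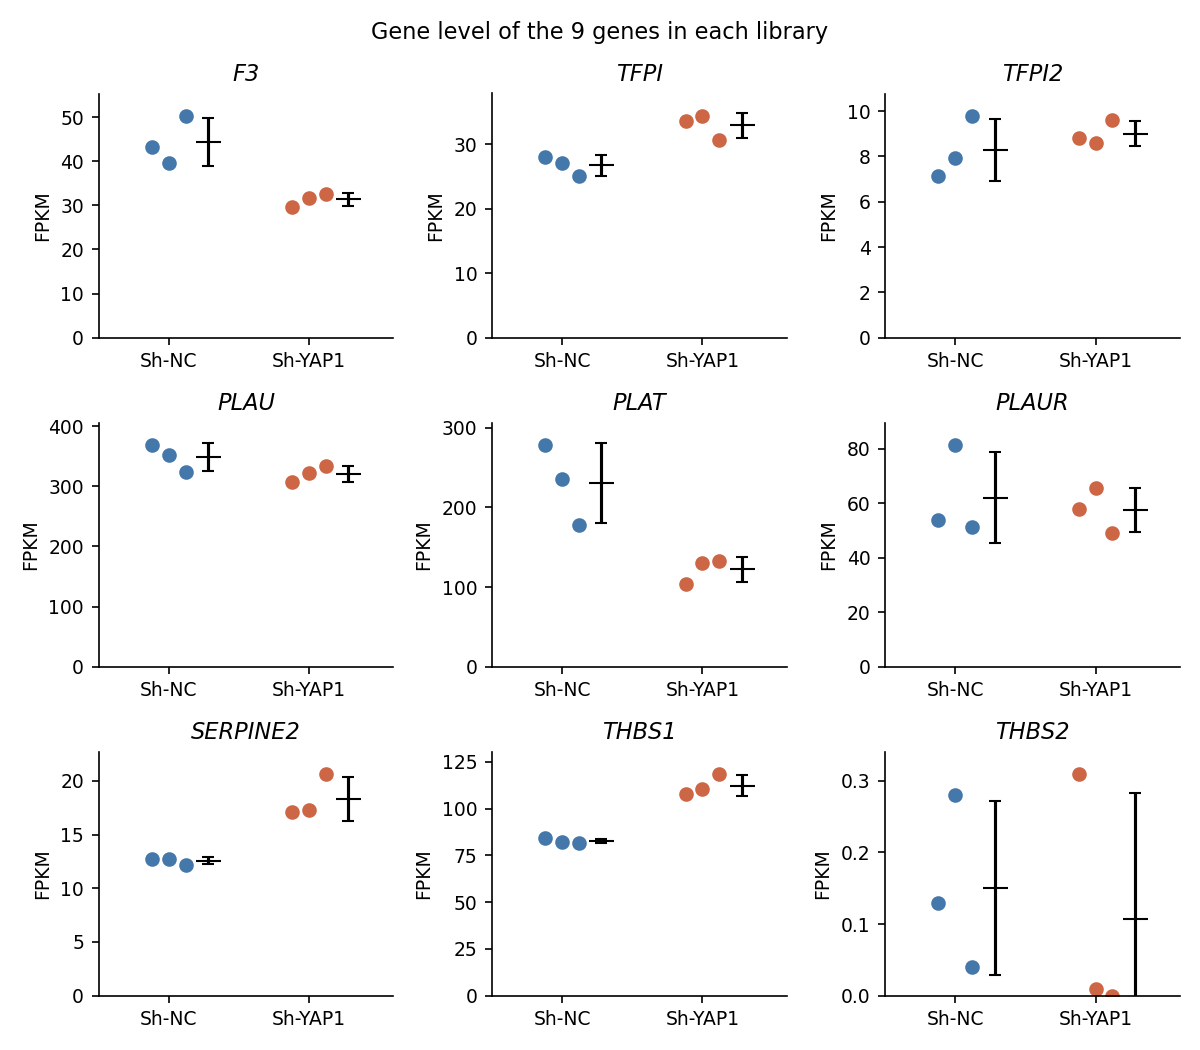
Gene level (FPKM, y axis from 0) in each of the 3 Sh-NC and 3 Sh-YAP1 libraries for the 9 genes, with points for libraries and a black bar with whiskers for the mean ± SD (n = 3). Points of F3 and PLAT lie lower and points of TFPI, SERPINE2 and THBS1 higher in Sh-YAP1 without overlap, while TFPI2, PLAU, PLAUR and THBS2 overlap.

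F3 was at 43.2, 39.5 and 50.3 FPKM in Sh-NC against 29.7, 31.8 and 32.5 FPKM in Sh-YAP1. Every Sh-YAP1 library was below every Sh-NC library, and the Sh-NC libraries were the more spread. The mean was 44.3 ± 5.48 FPKM in Sh-NC, against 31.3 ± 1.47 FPKM in Sh-YAP1 (SD, n = 3 each), a ratio of means of 0.706. The log2 fold change was -0.48 (SE 0.10, Benjamini-Hochberg adjusted p = 0.0587, limma). Its unadjusted 95% interval ran from -0.73 to -0.24. A two-sided exact permutation test on F3 gave p = 0.1, the smallest that 3 libraries against 3 allow, and gave the same value for each gene below whose groups do not overlap.

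TFPI, the inhibitor of the complex that tissue factor forms, lay the other way, at 28.1, 27.1 and 25.0 FPKM in Sh-NC against 33.7, 34.5 and 30.7 FPKM in Sh-YAP1. The Sh-YAP1 libraries were all above the Sh-NC libraries. The log2 fold change was 0.29 (SE 0.08, 95% interval 0.10 to 0.48, Benjamini-Hochberg adjusted p = 0.103, limma). TFPI2, a related inhibitor of plasmin and other proteases of the matrix, was at 7.15, 7.93 and 9.80 FPKM in Sh-NC against 8.81, 8.59 and 9.62 FPKM in Sh-YAP1. These ranges overlapped, and the log2 fold change of 0.12 had a 95% interval from -0.17 to 0.40 (Benjamini-Hochberg adjusted p = 0.627, limma). The antisense gene AC007319.1, which overlaps TFPI, had means of 1.12 FPKM in Sh-NC against 0.83 FPKM in Sh-YAP1.

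The urokinase gene PLAU had the highest level of the 9 genes in both groups. It was at 369, 353 and 324 FPKM in Sh-NC against 307, 322 and 334 FPKM in Sh-YAP1. The libraries overlapped, and the log2 fold change of -0.12 had a 95% interval from -0.29 to 0.06 (Benjamini-Hochberg adjusted p = 0.409, limma). C10orf55, on the opposite strand of PLAU, stayed at 1.39 to 2.01 FPKM. The receptor gene PLAUR was at 53.7, 81.5 and 51.1 FPKM in Sh-NC against 57.8, 65.5 and 49.3 FPKM in Sh-YAP1. Sh-NC replicate 2 stood above the other 5 libraries, and the interval of the log2 fold change of -0.09 was wide, from -0.56 to 0.38 (Benjamini-Hochberg adjusted p = 0.836, limma). Without Sh-NC replicate 2 the log2 fold change of PLAUR was 0.12, and without Sh-YAP1 replicate 3 it was 0.02, so its sign rests on single libraries.

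PLAT, the second plasminogen activator, had the largest difference of the 8 tested genes. It was at 279, 235 and 178 FPKM in Sh-NC against 104, 130.4 and 133 FPKM in Sh-YAP1. The highest Sh-YAP1 library lay below the lowest Sh-NC library by more than the spread within Sh-YAP1. The mean went from 231 ± 50.6 FPKM to 122 ± 16.0 FPKM (SD, n = 3 each), a ratio of 0.530. The log2 fold change was -0.90 (SE 0.18, 95% interval -1.32 to -0.47) with a Benjamini-Hochberg adjusted p of 0.0525 (limma). PLAT passed the threshold without Sh-NC replicate 3, the lowest of its group (Benjamini-Hochberg adjusted p = 0.0468, limma, log2 fold change -1.07), and with a filter at 1 FPKM (adjusted p = 0.0497). It missed the threshold under the other alternatives. No annotated gene overlaps PLAT, F3 or SERPINE2 in GENCODE release 29.

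SERPINE2 was steady in Sh-NC, at 12.8, 12.8 and 12.2 FPKM, and reached 17.1, 17.3 and 20.7 FPKM in Sh-YAP1. The mean rose by a ratio of 1.46, from 12.6 ± 0.32 to 18.3 ± 2.02 FPKM (n = 3 each, SD). The log2 fold change was 0.51 (SE 0.09, 95% interval 0.28 to 0.73, Benjamini-Hochberg adjusted p = 0.0421, limma). Leaving out any 1 of the 6 libraries ended the call (Benjamini-Hochberg adjusted p = 0.0806 to 0.129, limma) with a log2 fold change of 0.42 to 0.55. The call was also lost without the mean-variance trend, without a filter, without transcripts that reached 1 FPKM in 1 library only, and with the replicate number as a block.

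THBS1 is a glycoprotein that binds CD47 and CD36 on cells and can activate latent TGF-beta. Of the 9 genes it had the smallest SD relative to its mean in Sh-NC. It was at 84.1, 82.0 and 81.8 FPKM there and at 107.8, 110.2 and 118.6 FPKM in Sh-YAP1. All Sh-YAP1 libraries were higher, and the gap between the groups was larger than the range of either. The mean rose by a ratio of 1.36, from 82.6 ± 1.26 to 112 ± 5.68 FPKM (n = 3 each, SD). The log2 fold change was 0.44 (SE 0.06, 95% interval 0.28 to 0.59, Benjamini-Hochberg adjusted p = 0.0245, limma). With any 1 library left out the log2 fold change was 0.40 to 0.46 and the adjusted p from limma (Benjamini-Hochberg) was 0.0539 to 0.0907, so the call needed all 6. It was also lost with the replicate number as a block. AC037198.1, which lies inside an intron of THBS1 on the same strand, had means of 2.31 FPKM in Sh-NC against 3.52 FPKM in Sh-YAP1.

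THBS2 was close to 0 in this line. It was listed at 0.13, 0.28 and 0.04 FPKM in Sh-NC against 0.31, 0.01 and 0 FPKM in Sh-YAP1. The groups overlapped, the gene was under the filter, and no fold change is given. Nearly all mRNA of the pair was thus THBS1. The promoter window of THBS2 holds GGAATG at 2 places and that of THBS1 at 1, as printed above.

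**Figure D2:**
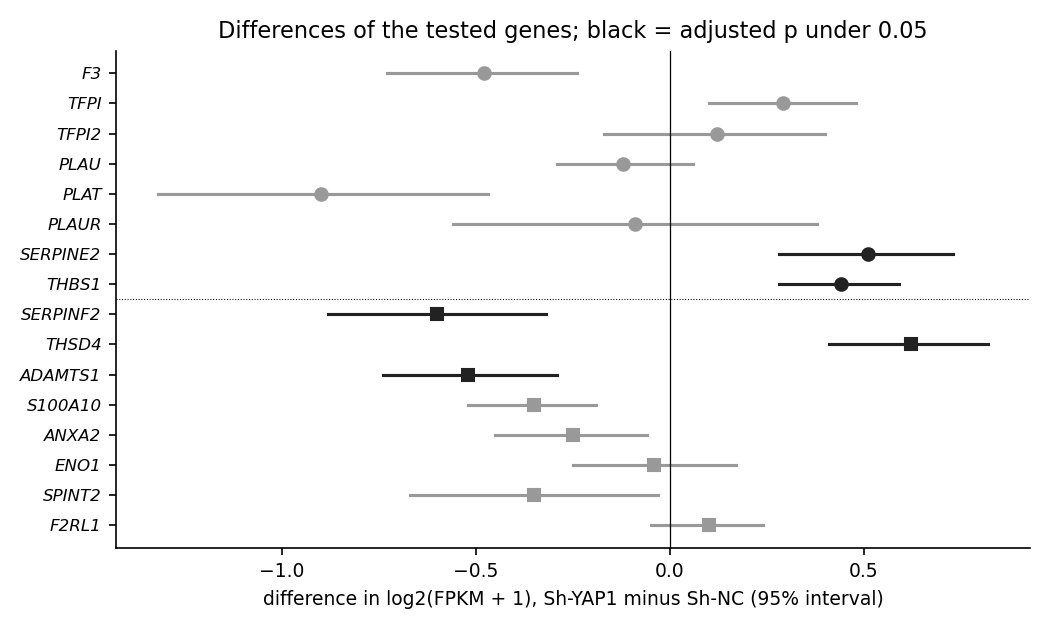
Difference in log2(FPKM + 1), Sh-YAP1 minus Sh-NC, with its unadjusted 95% interval from limma, for the 8 tested genes (circles, above the dotted line) and for genes of the wider pathway named in the text (squares). Black marks an adjusted p under 0.05, and PLAT lies farthest to the left at -0.90 with a wide interval.

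The order of the levels was nearly the same in the groups. In Sh-NC it ran from PLAU over PLAT, THBS1, PLAUR, F3, TFPI, SERPINE2 and TFPI2 down to THBS2, and no neighbours overlapped in their ranges over the 3 libraries. In Sh-YAP1 the order was the same except that TFPI, at 33.0 FPKM, came before F3, at 31.3 FPKM, and the ranges of these neighbours overlapped. PLAT (122 FPKM) and THBS1 (112 FPKM) also overlapped in Sh-YAP1. In Sh-NC the lowest PLAT library, at 178 FPKM, was above the highest THBS1 library, at 84.1 FPKM. The remaining neighbours stayed apart.

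Ratios of FPKM within a library do not depend on the scaling between libraries, and 4 of the 5 pairs compared are given, with the tests run on log2 ratios with a pseudocount of 1 FPKM. The level of F3 was 1.54, 1.46 and 2.01 times that of TFPI in Sh-NC and 0.881, 0.922 and 1.06 times in Sh-YAP1. Tissue factor mRNA thus exceeded that of its inhibitor in all 3 Sh-NC libraries and in 1 of 3 Sh-YAP1 libraries, and the difference of the log2 ratios was -0.77. The level of PLAU was 1.32, 1.498 and 1.82 times that of PLAT in Sh-NC and 2.96, 2.47 and 2.52 times in Sh-YAP1, a difference of 0.78 in the log2 ratio. For both pairs the groups did not overlap, and each gave p = 0.1 in the exact two-sided permutation test, the smallest possible, and 0.125 after Benjamini-Hochberg adjustment over the 5 pairs. For THBS1 to THBS2 the difference was 0.50 with the pseudocount of 1 FPKM and the same p, but 0.92 with a pseudocount of 0.1 and 2.10 with 0.01 FPKM, each with an exact permutation p of 0.3. The ratios of FPKM themselves overlapped between the groups, with THBS2 near 0, so the pair does not separate the groups apart from the pseudocount of 1 FPKM. The log2 ratio of PLAU to PLAUR was 2.50 ± 0.35 in Sh-NC and 2.47 ± 0.24 in Sh-YAP1 (SD, n = 3 each, exact permutation p = 0.9).

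**Figure D3:**
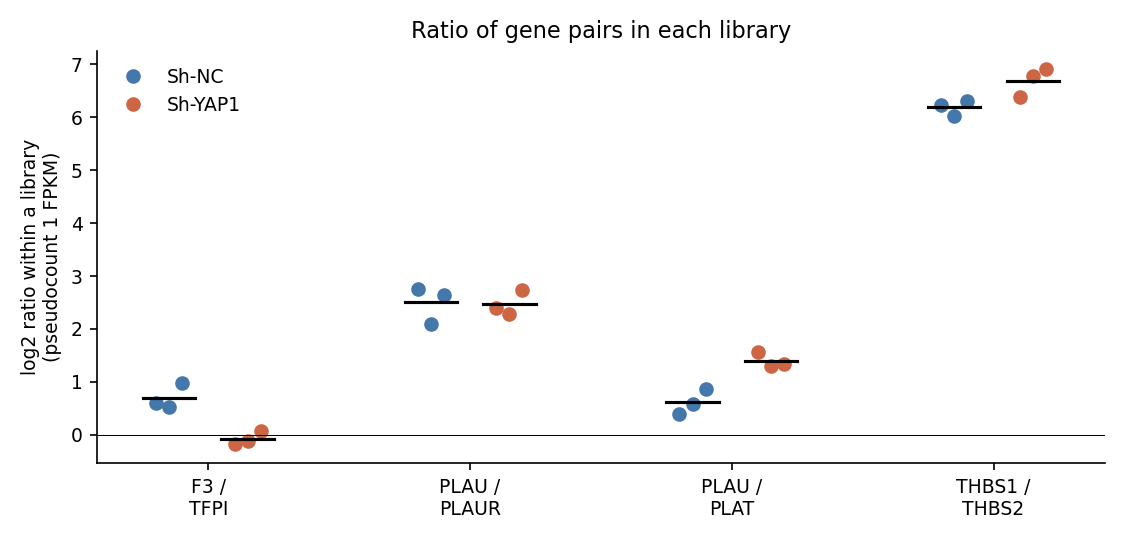
Log2 ratio of 4 pairs of genes within each library (y axis, pseudocount of 1 FPKM), with points for the 3 Sh-NC (blue) and 3 Sh-YAP1 (orange) libraries and a line for the mean. The mean of F3 to TFPI is 0.70 in Sh-NC and -0.07 in Sh-YAP1, and that of PLAU to PLAT 0.61 and 1.39, without overlap, while PLAU to PLAUR overlaps.

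A gene value is the sum of several rows, 1 per transcript, and the 9 genes had 80 rows, of which 52 had a mean of at least 0.1 FPKM and were tested. The rows carry a gene identifier and no transcript name, so they are numbered here by their mean level. By limma with Benjamini-Hochberg adjustment no row of the 9 genes was called, against 0.0515% of all 77655 rows tested, and 6 of the 52 had an unadjusted p under 0.05, against 6.12% of all rows. THBS1 was nearly a gene of 1 row, which held 93.4% of its FPKM and went from 77.1 ± 0.36 to 105 ± 5.93 FPKM (SD, n = 3 each). The other rows of THBS1 together were also higher in all Sh-YAP1 libraries, by 0.36 on the log2(FPKM + 1) scale. For F3 the leading row held 86.5% and was lower in all 3 Sh-YAP1 libraries (38.5 to 27.0 FPKM), while the other rows overlapped.

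PLAT had a leading row with 68.3% of its FPKM, at 155 ± 38.4 FPKM in Sh-NC, against 85.9 ± 14.98 FPKM in Sh-YAP1 (SD, n = 3 each). Its second row was at 64.0 ± 18.8 and 27.8 ± 5.03 FPKM. Both rows were lower in every Sh-YAP1 library than in any Sh-NC library, so the lower total was spread over both.

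The split over rows was less stable than the total for SERPINE2, TFPI and PLAUR. In SERPINE2 the leading row was at 16.0 and 18.6 FPKM in Sh-YAP1 replicates 1 and 3 and at 4.90 FPKM in replicate 2, where the second row held 11.7 FPKM against 0.07 and 1.45 FPKM in the others. The total of replicate 2, 17.3 FPKM, stood with the other Sh-YAP1 libraries. In TFPI the first row was at 3.12, 8.17 and 5.88 FPKM in Sh-NC against 8.84, 14.2 and 9.72 FPKM in Sh-YAP1, and row 3 at 5.74, 6.52 and 4.98 against 10.5, 9.95 and 7.85 FPKM. The second row of TFPI went from a mean of 9.66 to 5.66 FPKM with overlap. The leading row of PLAUR held 71.0% of its FPKM and was at 38.7, 42.8 and 36.1 against 44.5, 54.1 and 38.7 FPKM, with overlap and a log2 fold change of 0.21. In PLAUR row 3 was at 18.9 FPKM in Sh-NC replicate 2 and at 0.30 to 1.71 FPKM in the other 5 libraries. Row 2 of PLAUR was lower in Sh-YAP1 without overlap, at 8.49, 13.5 and 7.89 against 6.61, 6.91 and 6.40 FPKM. Without row 3, a choice made after the values were seen, PLAUR was at 52.0, 62.6 and 49.8 FPKM in Sh-NC against 56.9, 63.8 and 49.0 FPKM in Sh-YAP1.

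**Figure D4:**
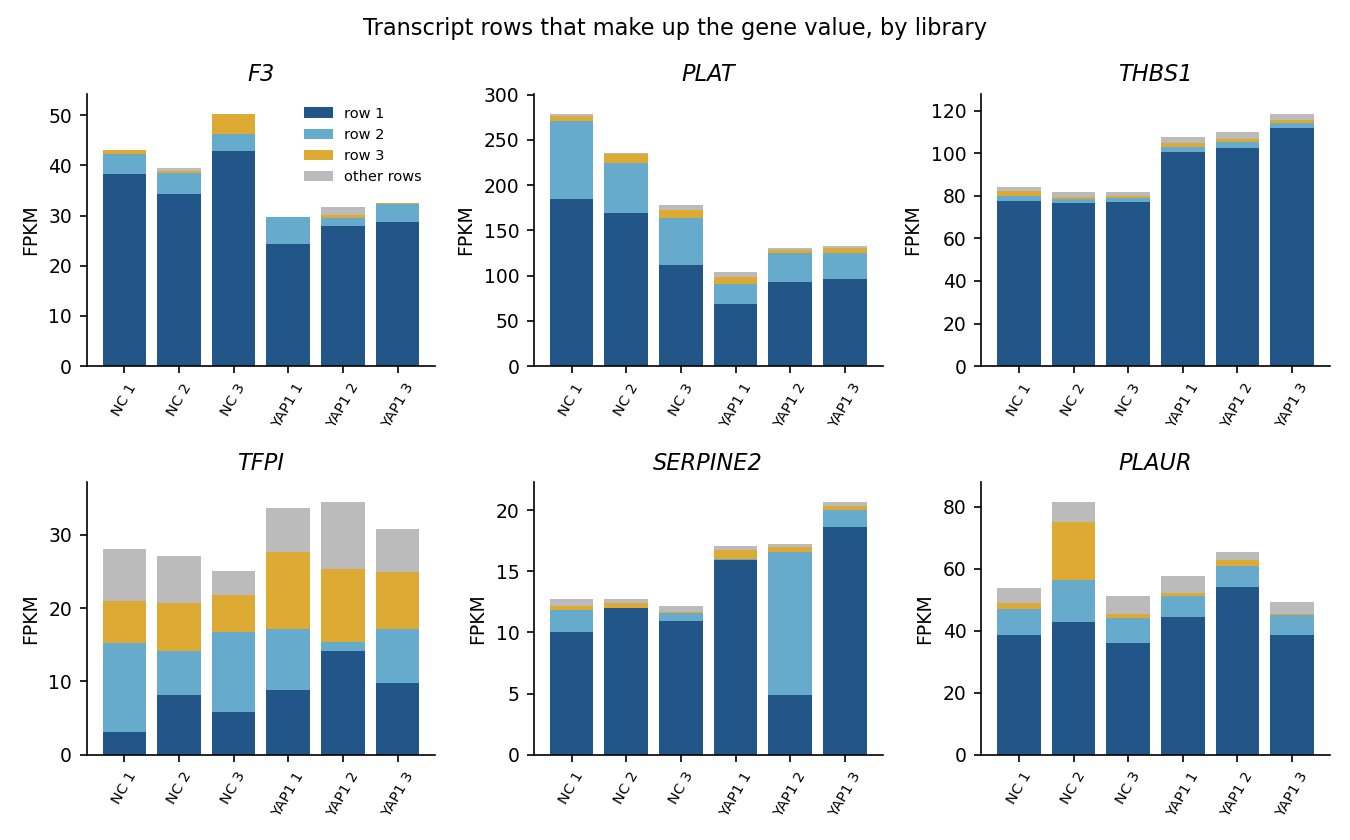
Stacked bars of the FPKM of transcript rows 1, 2 and 3 and of all other rows for 6 genes, by library (NC, Sh-NC; YAP1, Sh-YAP1; y axis from 0). Row 1 makes up nearly all of THBS1, and single libraries stand apart in row 2 of SERPINE2 (Sh-YAP1 replicate 2) and in row 3 of PLAUR (Sh-NC replicate 2).

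The surrounding pathway was followed with 4 lists of 70 genes in all, of which 34 were tested. A limma adjusted p under 0.05 was reached by 3 of them (1 higher and 2 lower in Sh-YAP1), which is 8.82% against 3.38% of all genes tested. Groups without overlap were found for 17 of the 34 (10 higher and 7 lower), against 29.4% of all genes. The list of plasminogen activation had 10 tested genes, with 1 called lower and none higher, and a median log2 fold change of 0.01. SERPINF2, the inhibitor of plasmin, fell from 1.16 ± 0.18 to 0.42 ± 0.10 FPKM (SD, n = 3 each), with an adjusted p of 0.0497 from limma (Benjamini-Hochberg) that stayed under 0.05 in 2 of 15 alternatives.

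The most abundant genes of the lists were plasminogen-binding or surface proteins. ANXA2 and S100A10, which form a complex that binds plasminogen and tPA at the cell surface, had means of 1672 and 740 FPKM in Sh-NC against 1405 and 580 FPKM in Sh-YAP1. Neither overlapped between the groups, and the adjusted p was 0.141 for ANXA2 and 0.0507 for S100A10 (limma, Benjamini-Hochberg). S100A10 passed the threshold in 4 of 16 alternatives, with pseudocounts of 0.1 and 0.01 FPKM, median centring and a filter at 1 FPKM (Benjamini-Hochberg adjusted p = 0.0448 to 0.0491, limma). ENO1, a glycolytic enzyme that also binds plasminogen, was at 1241 ± 23.6 and 1212 ± 126 FPKM with overlap (SD, n = 3 each). Processed copies of ANXA2 and ENO1 in the genome can share fragments with them, so these levels are less certain. SPINT2, a Kunitz-type inhibitor of surface serine proteases, was at 222 ± 32.0 and 174 ± 19.4 FPKM with overlap. PLG, which encodes plasminogen itself, was listed at 0 in all 6 libraries.

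Of the coagulation list 16 of 30 genes were tested and none was called (limma, Benjamini-Hochberg), while 5 had an unadjusted p under 0.05, as did 21.9% of all genes tested, and the median log2 fold change was 0.11. The most abundant was F2RL1, the protease-activated receptor that the complex of tissue factor and factor VIIa cleaves, at 117 ± 0.12 FPKM in Sh-NC, against 125 ± 5.40 FPKM in Sh-YAP1 (SD, n = 3 each), without overlap and with a Benjamini-Hochberg adjusted p of 0.410 (limma). The following genes were picked after their values were seen. The thrombin receptors F2R, F2RL2 and F2RL3 had log2 fold changes of 0.30, 0.34 and 0.46, each without overlap and each short of the threshold (Benjamini-Hochberg adjusted p = 0.0813, 0.114 and 0.133, limma). Their levels differed, at 14.3 to 19.6 FPKM for F2R, 3.27 to 5.05 FPKM for F2RL2 and only 0.63 to 1.76 FPKM for F2RL3. PROCR, the receptor of protein C, was lower in all 3 Sh-YAP1 libraries, at 23.6 to 26.6 FPKM against 30.2 to 34.2 FPKM (Benjamini-Hochberg adjusted p = 0.0802, limma).

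The thrombospondin-related list had 5 tested genes of 13, with 1 called higher and 1 lower, against 1.75% and 1.62% of all genes tested, and a median log2 fold change of 0.26. THSD4, a matrix protein with thrombospondin repeats, rose from 6.51, 7.66 and 6.68 FPKM to 11.1, 10.9 and 11.5 FPKM, a log2 fold change of 0.62 (Benjamini-Hochberg adjusted p = 0.0220, limma). ADAMTS1, a metalloprotease with the same repeats that cleaves proteoglycans, fell from 9.27, 9.07 and 10.2 FPKM to 5.74, 6.52 and 6.81 FPKM, a log2 fold change of -0.52 (adjusted p = 0.0389). Leaving out any 1 library ended both calls, with an adjusted p of 0.0511 to 0.0850 for THSD4 and 0.0928 to 0.117 for ADAMTS1. Both calls were also lost with the replicate number as a block. That of ADAMTS1 was lost as well without a filter and without transcripts that reached 1 FPKM in 1 library only. The list of pericellular serine proteases had 3 tested genes of 12, none of them called (limma, Benjamini-Hochberg) and 2 with an unadjusted p under 0.05, against 21.9% of all genes, and a median of 0.36.

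**Figure D5:**
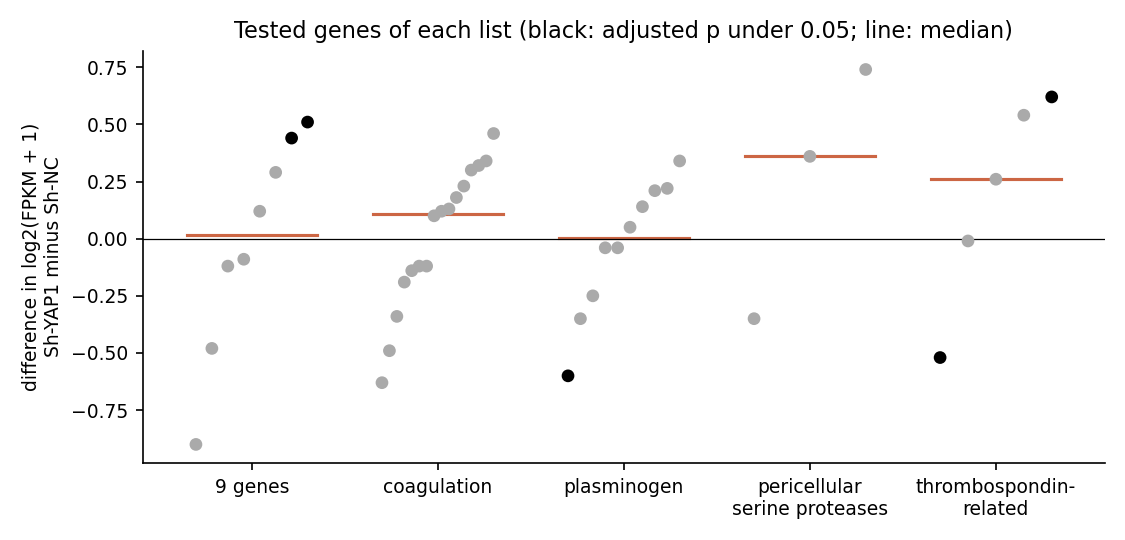
Difference in log2(FPKM + 1), Sh-YAP1 minus Sh-NC, of every tested gene among the 9 genes and the 4 lists, sorted within each list, with a line at the median. Black points (adjusted p under 0.05) are SERPINE2 and THBS1 among the 9 genes, SERPINF2 in the plasminogen list, and THSD4 and ADAMTS1 in the thrombospondin-related list.

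The genes most like THBS1 and SERPINE2 over the 6 libraries were found by the root mean square difference of log2(FPKM + 1) values, each gene centred on its own mean, among 13098 genes that averaged 1 FPKM or more. For THBS1 these were ERMP1 (0.0234), MBNL3 (0.0273) and NOG (0.0291), with log2 fold changes of 0.43, 0.41 and 0.41. Only NOG was called among them (Benjamini-Hochberg adjusted p = 0.0541, 0.0657 and 0.0352, limma). ERMP1 and MBNL3 were low, at 2.52 to 4.05 and 1.75 to 2.99 FPKM. NOG, which encodes the BMP antagonist noggin, was at 11.4 to 12.02 FPKM in Sh-NC, against 15.4 to 16.5 FPKM in Sh-YAP1. For SERPINE2 they were CYBRD1 (0.0300), FAM228B (0.0405) and PDK4 (0.0427), with log2 fold changes of 0.45, 0.53 and 0.51. None of these was called (Benjamini-Hochberg adjusted p = 0.0631, 0.0608 and 0.0639, limma). FAM228B stayed at 0.78 to 1.99 FPKM and PDK4 at 0.59 to 1.61 FPKM, where the pseudocount of 1 FPKM shrinks a change. These genes and those like THBS1 were picked on these same values, so their like fold changes follow from the choice. CYBRD1, a ferric reductase, was at 16.9, 16.9 and 16.4 FPKM in Sh-NC against 21.5, 21.8 and 26.7 FPKM in Sh-YAP1. Its highest value was in replicate 3 as for SERPINE2, which follows from the same choice.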

How the data were processed

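RNA-sequencing was performed for the authors by LC-Bio, and the 6 deposited files give FPKM, 1 value per transcript under its gene identifier, with 2 decimals and 229420 rows each. The methods name another series for the RNA-sequencing, so the provider is taken from them on the match of cell line and hairpin with the labels. Stable expression is named in a figure legend and not in the methods, which describe transfection. The submitters' processing notes name HISAT2 2.0, Bowtie 0.12.2 and the build hg19, with no role. The quantification tool, annotation and filters are not given in the sources used here. FPKM summed to 467493 to 475116 per library, and depth is unknown. Rows sharing a gene identifier were summed. Symbols were matched for 60401 of 60612 identifiers.

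Values were analysed as log2(FPKM + 1), which understates changes of low genes, with a filter at a mean of 0.5 FPKM for genes and 0.1 FPKM for transcripts. Groups were compared with limma 3.58.1 (mean-variance trend, condition as the only factor, Benjamini-Hochberg adjustment over all features) in R 4.3.3, and single values with exact two-sided permutation tests. The code was tested on simulated data. Python 3.11.15 was used otherwise. The 9 genes and the lists were chosen with earlier results of these data known. Beyond the 9 genes, the rule for names took YAP1, GAPDH, listed genes with an adjusted p under 0.05 or among the 5 most abundant, and the 3 genes most like a called member. Markers and overlapping genes are named as checks, and other listed genes were picked after their values were seen. Motif windows come from RefSeq on GRCh38.p14, and overlapping genes from GENCODE release 29, which held 58394 of the identifiers. No coordinates enter the values. Alternatives covered pseudocounts of 0.1 and 0.01, quantile normalization, median centring, no trend, other filters, other gene sums, a replicate block and each library left out. A gene of the plasminogen list and the ratio that holds it are not reported here, and the list counts leave it out.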

Additional observations from a re-analysis of the deposited data

How the results depend on the processing

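The number of genes called was 499, and 232 without a filter, 1 with the replicate number as a block and 78 to 171 with 1 library left out. Of the 9 genes, 2 were called, against 1 without the mean-variance trend, 1 without a filter, 1 without transcripts at 1 FPKM in only 1 library, 0 with the block, 3 with a filter at 1 FPKM and 0 to 1 with 1 library left out, all by limma with 5 genes at an unadjusted p under 0.05 in each, against 12.9% to 23.3% of all genes by setting. Of the pathway lists, 3 genes were called, against 4 with median centring, 2 with quantile normalization, 1 without a filter, 1 without those transcripts, 0 with the block (limma, 12 at an unadjusted p under 0.05) and 0 with any library left out (11 to 14 at an unadjusted p under 0.05). No member transcript was called by limma under any alternative (5 to 9 at an unadjusted p under 0.05, against 4.47% to 8.05% of all transcripts). Libraries with the same number deviated from their group means with correlations of -0.0285, 0.0621 and 0.0042 across genes, and 2 of 6 libraries correlated best with their own number, so they were not treated as pairs. The sign turned for PLAUR without its row 3 (0.04, chosen after seeing the data) and with 1 library left out (-0.21 to 0.12), for ENO1 with quantile normalization (0.03) or with 1 library left out (-0.09 to 0.05), and for the ratio of PLAU to PLAUR, at -0.23 to 0.10 with 1 library left out. The remaining 3 ratios, with 1 library left out, were -0.86 to -0.64 for F3 to TFPI, 0.67 to 0.90 for PLAU to PLAT and 0.39 to 0.65 for THBS1 to THBS2, with the same sign under the block. The last was 0.92 and 2.10 with pseudocounts of 0.1 and 0.01 FPKM. The other tested members and YAP1 kept their sign under all 16 alternatives. For TFPI2 the log2 fold change still ranged from 0.03 to 0.23 with 1 library left out. For PLAU it ranged from -0.17 to -0.07 in the same way and was -0.01 with quantile normalization. The cause of the lost calls was not tested, apart from the smaller number of libraries when 1 is left out. The values carry no depth, so a gene listed at 0 gives no upper limit.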

Other observations

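Several genes of plasma clotting factors were listed at or near 0. Of the coagulation list, which also holds receptors and other cell proteins, 14 of 30 genes were under the filter. F9, F11 and F13B were listed at 0 in every library, and F2, F5, F7 and PROC did not exceed 0.07 FPKM. Those that passed the filter included F8, at 1.95 to 2.82 FPKM, and F13A1, at 4.24 to 5.35 FPKM. The fibrinogen chain gene FGB was at 0.22 to 0.78 FPKM in Sh-NC and at 1.07, 0 and 0 FPKM in Sh-YAP1 replicates 1 to 3, and FGA and FGG were likewise at 0 in Sh-YAP1 replicates 2 and 3. The membrane proteases ST14 and HPN did not exceed 0.29 FPKM, while the secreted protease PRSS23 was at 51.4 to 115 FPKM in Sh-NC and 75.8 to 152 FPKM in Sh-YAP1 with overlap. These genes were picked after their values were seen.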
